A study of Mus musculus with 60 samples.

Results

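RNA levels in undifferentiated mouse embryonic stem cells exposed to valproic acid (VPA) were compared with those in the same cells exposed to the antiepileptics topiramate and dimethadione, and topiramate was compared with dimethadione. The arrays were chosen by their treatment labels: 3 carried 1 mM VPA, 3 carried 1 mM topiramate and 3 carried 1 mM dimethadione, which is 9 of the 60 arrays of the series. Each compound was given in 0.1% DMSO for 6 h to attached R1 cells, an established mouse embryonic stem cell line that had been grown on feeder cells and depleted of them before exposure. The labels class all 3 compounds as teratogens, and all 3 were used at the highest dose the study allowed, so dose, solvent, time and label class were matched. Another 3 arrays with 0.1% DMSO alone served to place the differences. The series as a whole exposed this 1 cell line to 20 treatments, 3 arrays each, in order to compare teratogens with other compounds. The labels call the arrays of a treatment triplicates and do not say that they came from separate cultures, so the p-values below measure the spread between these arrays, which may be technical. Title numbers run consecutively within a treatment, and if they mark the order of handling, order and compound cannot be told apart.

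VPA is a branched short-chain fatty acid that inhibits the zinc-dependent histone deacetylases, raises GABA in the brain, and competes with other fatty acids for coenzyme A and carnitine. Histone deacetylases remove acetyl groups from histone tails, usually as part of corepressor complexes. Acetyltransferases add these groups, and bromodomain proteins read them. Topiramate is a sulfamate-substituted monosaccharide that inhibits carbonic anhydrases, dampens AMPA and kainate receptors and enhances GABA-A receptors. Dimethadione, an oxazolidinedione, is the active metabolite of trimethadione and blocks T-type calcium channels. In embryonic stem cells a network around Pou5f1, Sox2 and Nanog holds the undifferentiated state, and the miR-302 and miR-17 microRNA clusters promote rapid cell cycling.

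Levels are log2 array values, in which a difference of 1 is a factor of 2, and they were compared over the 21789 probe sets that have a single gene symbol. A probe set was called where limma gave a Benjamini-Hochberg adjusted p under 0.05, and differences are given ± the standard error. The mean level over all these probe sets was 8.20 to 8.24 on each of the 9 arrays. The interquartile range of an array, a measure of how far its values spread, was 3.23 to 3.27 with VPA, 3.05 to 3.18 with topiramate and 3.15 to 3.31 with dimethadione. Stem cell markers were bright in every group: Pou5f1, the core pluripotency factor, read 12.71 to 12.72 with VPA and 12.75 to 12.82 with the other 2 compounds. The 13 stem cell markers averaged 11.30 to 11.34 with VPA, 11.58 with topiramate and 11.57 to 11.62 with dimethadione. Of these 13, 9 were called lower with VPA and none higher. The 20 fibroblast markers, which feeder cells would carry, averaged 9.06 to 9.11 with VPA, 9.08 to 9.10 with topiramate and 9.06 to 9.07 with dimethadione. Of these, 2 (Thy1 and Mmp2) were called higher with VPA, against 31.0% of all probe sets called in either direction. The 14 primitive endoderm markers averaged 8.29 to 8.30, 8.32 to 8.36 and 8.26 to 8.33 in the same order, and the 14 trophoblast markers 8.19 to 8.21, 8.23 to 8.26 and 8.18 to 8.24. In such bulk samples a lower level can be fewer cells of a kind or less RNA per cell, which cannot be told apart.

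VPA stood apart from both other antiepileptics. Against the mean of topiramate and dimethadione 6755 probe sets (31.0% of those tested) were called, 3838 higher and 2917 lower with VPA. Most of these differences were small: 534 (2.45%) were at least 1.5-fold, 334 of them higher, and 47 (0.216%) were at least 2-fold, 27 of them higher. The median over all probe sets was -0.01, the median absolute difference was 0.10, and the extremes were 1.71 and -1.53. In 6450 probe sets (29.6%) the 3 VPA arrays lay wholly above or wholly below the 6 others, and 5642 of these were also called (25.9%). Taken pair by pair, VPA differed from topiramate in 6615 probe sets (30.4%; 3953 higher, 2662 lower) and from dimethadione in 6018 (27.6%; 3088 higher, 2930 lower). These comparisons share the VPA arrays. With p-values adjusted over the 3 pairs together the counts were 6222 and 5828.

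Topiramate and dimethadione were closer to each other. Only 11 probe sets were called between them at a difference of 1.5-fold or more (0.0505%). VPA had 594 such calls against topiramate (2.73%) and 552 against dimethadione (2.53%). The absolute difference that 99% of probe sets stayed under was 0.37 between topiramate and dimethadione and 0.73 between VPA and their mean. The root mean square distance between arrays had a median of 0.179 within VPA, 0.217 within topiramate and 0.237 within dimethadione. Between topiramate and dimethadione arrays it was 0.246, close to the distance within dimethadione, and from VPA it was 0.283 to topiramate and 0.303 to dimethadione. From DMSO it was 0.2225 to topiramate, 0.226 to dimethadione and 0.277 to VPA. By these medians topiramate and dimethadione were each nearer to DMSO than to the other.

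**Figure D1:**
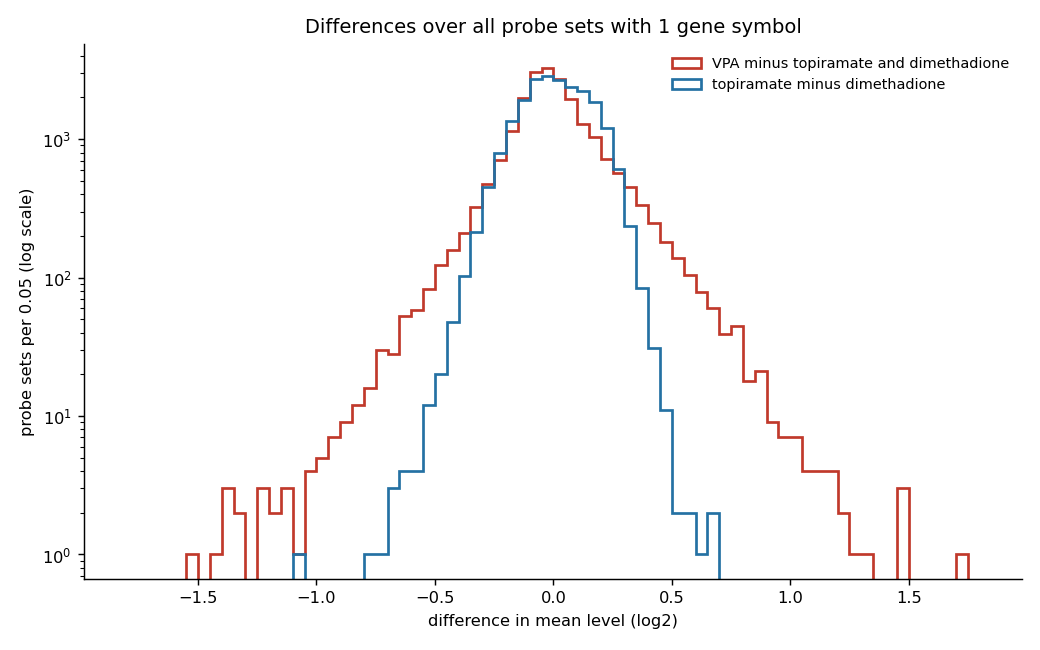
Differences in mean log2 level (horizontal axis) over the 21789 probe sets with 1 gene symbol, as the number of probe sets per bin of 0.05 on a log axis. The VPA line reaches from -1.53 to 1.71, and the line of topiramate minus dimethadione from -1.08 to 0.67.

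The DMSO arrays, which the contrast did not use, lay with topiramate and dimethadione. On a scale where the mean of those compounds is 0 and VPA is 1, DMSO had a median position of 0.04 over the 6755 called probe sets (quartiles -0.12 and 0.21). DMSO was nearer to the other compounds than to VPA in 6380 of them (94.4%) and in all 534 with at least a 1.5-fold difference. Over the 20 treatments of the series VPA had the highest mean in 2802 of the 3838 higher calls (73.0%) and in 322 of the 334 at least 1.5-fold higher (1.53% of all probe sets). It had the lowest mean in 2061 of the 2917 lower calls (70.7%) and in 191 of the 200 at least 1.5-fold lower (0.918%). These probe sets were called for a VPA level above or below that of topiramate and dimethadione, so an extreme rank is partly built in. The same choice partly favours a DMSO position near the other compounds. How often VPA was highest or lowest over all probe sets was not counted.

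The 15 largest rises ran from 1.05 to 1.71, and all 15 were highest with VPA among the 20 treatments, a rank that choosing them by this difference favours. None was called between topiramate and dimethadione, whose differences for these genes ran from -0.34 to 0.03. Mindy2, a deubiquitinase that trims lysine-48-linked chains, read 8.05, 7.69 and 7.91 with VPA, 6.06, 6.13 and 6.02 with topiramate, 6.30, 6.23 and 6.31 with dimethadione and 6.57, 6.29 and 6.58 with DMSO. All 3 VPA arrays lay more than 1 log2 unit above every other array, and the difference was 1.71 ± 0.087 (adjusted p = 3.59e-21). Its second probe set was also called higher, by 0.87. Meioc, which maintains meiotic prophase in germ cells, read 9.96, 9.79 and 9.92 with VPA, 8.30, 8.39 and 8.09 with topiramate, 8.84, 8.39 and 8.46 with dimethadione and 8.59, 8.44 and 8.67 with DMSO. VPA was again clear of the other 9 arrays, with a difference of 1.48 ± 0.087 (adjusted p = 5.81e-19).

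Slc1a1 encodes the neuronal glutamate and cysteine transporter EAAT3. It read 8.99, 8.91 and 9.03 with VPA, 7.41, 7.53 and 7.45 with topiramate, 7.54, 7.50 and 7.59 with dimethadione and 7.34, 7.61 and 7.30 with DMSO. The VPA arrays sat well above the rest while the other 3 groups overlapped, and the difference was 1.47 ± 0.057 (adjusted p = 1.90e-25), or 2.78-fold. Rem2, a small GTPase that binds calcium channel beta subunits and lowers channel activity, read 9.36, 9.16 and 9.40 with VPA, 7.91, 7.69 and 7.87 with topiramate, 7.80, 7.90 and 7.94 with dimethadione and 7.81, 7.58 and 7.77 with DMSO, a difference of 1.46 ± 0.084 (adjusted p = 3.53e-19). Aqp11, an aquaporin of intracellular membranes, read 9.44, 9.42 and 9.43 with VPA, 8.04, 8.01 and 7.95 with topiramate, 8.25, 8.18 and 8.09 with dimethadione and 8.13, 7.92 and 8.18 with DMSO. The 3 VPA values were nearly equal and none of the others came within 1 unit of them. Dennd4a, an activator of Rab GTPases, had 9 probe sets, all called higher, with differences from 0.64 to 1.28. Egr1, an immediate early transcription factor, read 10.48, 10.39 and 10.31 with VPA, 9.10, 9.09 and 9.06 with topiramate, 9.22, 9.36 and 9.13 with dimethadione and 9.12, 9.08 and 9.00 with DMSO, a difference of 1.23 ± 0.061 (adjusted p = 9.23e-22).

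Among the remaining rises were chromatin and germ cell genes. H2ac1, a testis histone H2A, read 13.61, 13.61 and 13.65 with VPA, 12.59, 12.46 and 12.48 with topiramate, 12.53, 12.46 and 12.44 with dimethadione and 12.44, 12.45 and 12.51 with DMSO. VPA lay above the other groups, whose arrays overlapped, a difference of 1.13 ± 0.048 (adjusted p = 5.53e-24). Usp51, a deubiquitinase of histone H2A, rose by 1.14, and Mak, a male germ cell kinase, by 1.16. Cell surface genes followed: the receptor tyrosine kinase Mertk rose by 1.10, the incretin receptor Glp1r by 1.08 and the carboxypeptidase Cpm by 1.06. The other two were the transcription factor Tcf19 (1.05) and Olfr1372-ps1 (1.13), an olfactory receptor pseudogene whose probes may share sequence with related copies.

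The promoters of the 3 largest rises are shown as RefSeq gives them for GRCm38.p6, from 250 bases before the transcription start, in the direction of transcription. Capitals mark a GC box (GGGCGG, read on both strands, with overlapping matches joined) or a CCAAT box (CCAAT, both strands).
Mindy2 promoter, chr9:70657175-70657424, minus strand: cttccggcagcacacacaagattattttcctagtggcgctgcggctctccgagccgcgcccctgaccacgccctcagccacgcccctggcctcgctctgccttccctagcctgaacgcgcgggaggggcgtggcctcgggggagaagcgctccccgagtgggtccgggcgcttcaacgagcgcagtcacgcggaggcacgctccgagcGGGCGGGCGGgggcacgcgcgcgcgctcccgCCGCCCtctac
Meioc promoter, chr11:102665335-102665584, plus strand: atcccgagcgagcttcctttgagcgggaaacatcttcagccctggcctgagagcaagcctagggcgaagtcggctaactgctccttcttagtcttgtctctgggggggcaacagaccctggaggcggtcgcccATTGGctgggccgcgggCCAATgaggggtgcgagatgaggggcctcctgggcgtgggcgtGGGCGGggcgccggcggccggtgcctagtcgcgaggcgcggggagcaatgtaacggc
Slc1a1 promoter, chr19:28834885-28835134, plus strand: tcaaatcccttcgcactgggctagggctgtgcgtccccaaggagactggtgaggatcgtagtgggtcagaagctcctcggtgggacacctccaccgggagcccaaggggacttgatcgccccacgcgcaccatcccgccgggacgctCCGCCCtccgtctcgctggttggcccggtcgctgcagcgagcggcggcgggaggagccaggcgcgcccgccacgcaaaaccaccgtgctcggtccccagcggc
The Mindy2 promoter holds 3 GC boxes and 34 CpG dinucleotides, that of Meioc 1 GC box, 2 CCAAT boxes and 22 CpG, and that of Slc1a1 1 GC box and 27 CpG. Of the 15 largest rises 13 had a promoter sequence, and 11 of the 13 held a GC box. Over the 15614 measured genes with a promoter the share was 46.0%, and the median number of CpG was 11 against 22 for the 13. A match to these letters is a description and not a binding site.

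The 15 largest falls ran from -1.11 to -1.53, and 12 of them were lowest with VPA among the 20 treatments, which their choice favours. The exceptions were Mir302a, Mir302c and Mir302d. None of the 15 was called between topiramate and dimethadione, where the differences ran from -0.39 to 0.01. They were mainly developmental transcription factors and microRNA genes. Zic2, a zinc finger factor of the epiblast and neural plate, read 8.53, 8.44 and 8.48 with VPA, 10.00, 9.89 and 9.70 with topiramate, 9.96, 9.95 and 9.81 with dimethadione and 9.84, 9.75 and 9.81 with DMSO. All VPA arrays lay more than 1 unit below all others, a difference of -1.40 ± 0.055 (adjusted p = 2.56e-25). Foxd3, a forkhead repressor of pluripotent and neural crest cells, read 8.37, 8.34 and 8.43 with VPA, 9.74, 9.71 and 9.77 with topiramate, 9.81, 9.73 and 9.72 with dimethadione and 9.68, 9.56 and 9.56 with DMSO, with no overlap and a difference of -1.37 ± 0.066 (adjusted p = 4.69e-22). Foxi3, a forkhead factor of cranial placodes and ectoderm, read 9.40, 9.37 and 9.35 with VPA, 10.82, 10.67 and 10.64 with topiramate, 10.75, 10.83 and 10.62 with dimethadione and 10.64, 10.57 and 10.65 with DMSO, a difference of -1.35 ± 0.078 (adjusted p = 3.68e-19).

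Gdf3, a TGF-beta ligand of pluripotent cells, read 10.10, 10.21 and 10.17 with VPA, 11.41, 11.39 and 11.42 with topiramate, 11.48, 11.31 and 11.40 with dimethadione and 11.35, 11.34 and 11.40 with DMSO. Its level hardly varied outside VPA, and the difference was -1.24 ± 0.047 (adjusted p = 9.92e-26). Nr5a2, a nuclear receptor that sustains Pou5f1 expression, read 9.23, 9.31 and 9.15 with VPA, 10.36, 10.40 and 10.31 with topiramate, 10.54, 10.49 and 10.46 with dimethadione and 10.41, 10.19 and 10.47 with DMSO, a difference of -1.20 ± 0.057 (adjusted p = 3.79e-22). Cpsf4l, a relative of an mRNA cleavage factor, fell by 1.35 on the log2 scale, Cyp2b23, a cytochrome P450 of a family of similar genes, by 1.23, and Bend3, a BEN domain repressor, by 1.19. Nexmif, a neurite extension factor, fell by 1.14, and H2-M5, a nonclassical MHC gene, by 1.12. The other five of the 15 were the microRNA genes Mir302a, Mir302b, Mir302c, Mir302d and Mir18.

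The promoters of the 3 largest falls with a sequence in the table are shown in the same way. Here capitals also mark a cAMP response element core (TGACGTCA, which reads the same on both strands).
Foxd3 promoter, chr4:99656049-99656298, plus strand: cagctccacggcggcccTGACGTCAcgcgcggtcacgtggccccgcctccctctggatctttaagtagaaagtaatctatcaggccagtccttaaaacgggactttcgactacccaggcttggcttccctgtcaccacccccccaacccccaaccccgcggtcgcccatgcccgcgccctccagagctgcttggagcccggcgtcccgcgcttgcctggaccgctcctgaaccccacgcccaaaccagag
Foxi3 promoter, chr6:70956356-70956605, plus strand: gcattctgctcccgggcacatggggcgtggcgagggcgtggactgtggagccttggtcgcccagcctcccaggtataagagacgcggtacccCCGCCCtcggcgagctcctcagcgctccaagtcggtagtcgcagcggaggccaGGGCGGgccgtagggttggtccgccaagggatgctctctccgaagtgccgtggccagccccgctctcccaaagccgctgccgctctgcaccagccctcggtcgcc
Cpsf4l promoter, chr11:113710018-113710267, minus strand: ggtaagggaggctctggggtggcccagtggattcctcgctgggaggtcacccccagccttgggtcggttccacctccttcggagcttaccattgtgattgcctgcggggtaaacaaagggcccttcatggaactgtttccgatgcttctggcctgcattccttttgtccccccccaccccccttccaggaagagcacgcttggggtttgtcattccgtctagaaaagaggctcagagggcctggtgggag
Foxd3 holds the cAMP response element core, which occurs in 2.12% of the 15614 promoters, and no GC box. Foxi3 holds 2 GC boxes and Cpsf4l none of the 3 motifs. Of the 8 falls with a promoter sequence 2 held a GC box, and their median number of CpG was 6. With 13 and 8 promoters, chosen by their difference, these shares are descriptions without a test.

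**Figure D2:**
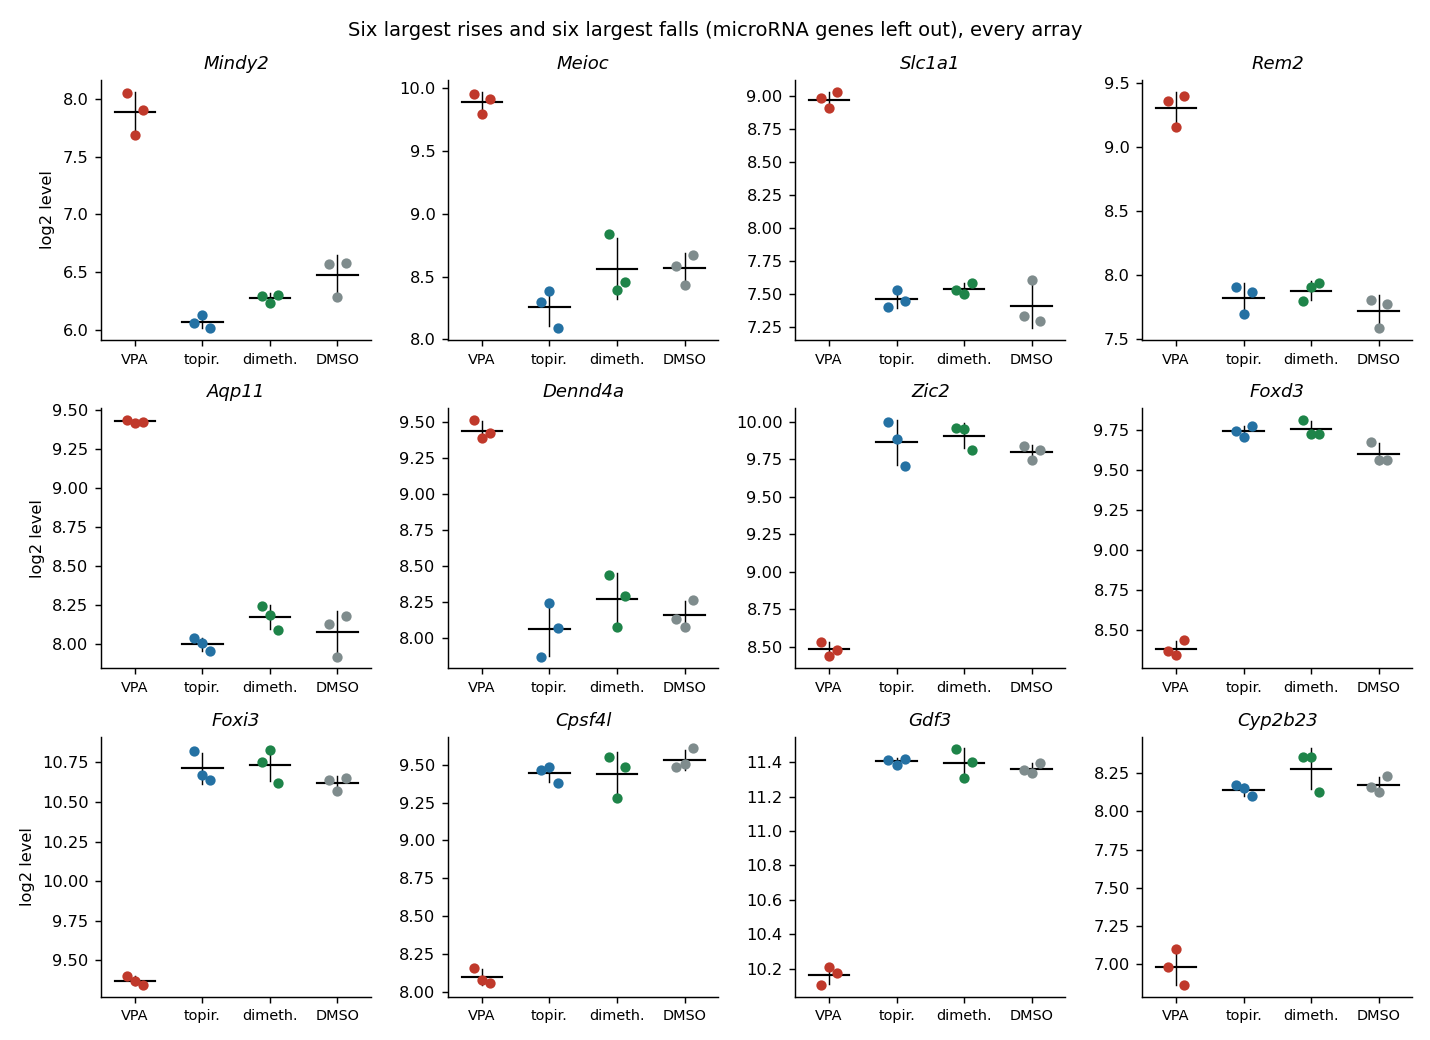
Log2 level on every array of VPA, topiramate (topir.), dimethadione (dimeth.) and DMSO for the largest rises and the largest falls other than microRNA genes; points are arrays, lines the mean ± SD (n = 3), and each panel has its own axis. In all 12 panels the 3 VPA arrays lie clear of the other 9, whose groups overlap or lie close together.

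The 5 microRNA genes among the 15 largest falls belong to a pair of clusters. The probe sets read the hairpin or its primary transcript in cDNA made from total RNA, not the mature microRNA. Mature sequences are shown to make the families visible, with the seed (bases 2 to 8) in capitals, from RefSeq on GRCm38.p6. The miR-302 cluster lies at chr3, from the Mir302b hairpin at chr3:127545228-127545301 to the Mir367 hairpin at chr3:127545733-127545807, plus strand.
mmu-miR-302b-3p: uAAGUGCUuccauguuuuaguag
mmu-miR-302c-3p: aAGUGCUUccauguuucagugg
mmu-miR-302d-3p: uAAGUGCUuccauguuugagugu
mmu-miR-367-3p: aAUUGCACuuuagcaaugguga
The hairpins of the miR-17 cluster shown here lie at chr14, from the Mir17 hairpin at chr14:115043671-115043754 to that of Mir19b-1 at chr14:115044305-115044391, plus strand.
mmu-miR-17-5p: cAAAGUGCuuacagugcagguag
mmu-miR-18a-5p: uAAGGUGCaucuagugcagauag
mmu-miR-19a-3p: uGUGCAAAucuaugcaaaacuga
mmu-miR-20a-5p: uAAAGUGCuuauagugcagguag
mmu-miR-19b-3p: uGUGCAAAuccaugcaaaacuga
miR-302b and miR-302d share the seed AAGUGCU, miR-17 and miR-20a share AAAGUGC, and miR-19a and miR-19b share GUGCAAA. The run AAGUGC starts at base 2 of miR-302b and miR-302d, at base 1 of miR-302c and at base 3 of miR-17 and miR-20a. miR-367, miR-18a and miR-19 have other seeds.

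All 5 genes of the miR-302 cluster were called lower with VPA and had every VPA array below all 6 others, with a median difference of -1.36. Another treatment of the series was lower still for Mir302a, Mir302c, Mir302d and Mir367, where VPA ranked 19 of 20 from the top. DMSO minus the mean of topiramate and dimethadione had a median of -0.29 over the cluster. Against DMSO the fall of Mir302a, Mir302b, Mir302c and Mir302d was therefore smaller. Mir302c read 4.89, 5.39 and 5.37 with VPA, 6.70, 6.83 and 6.51 with topiramate, 7.07, 6.53 and 6.84 with dimethadione and 6.30, 6.09 and 6.48 with DMSO. Its VPA arrays lay at least 1 unit under the topiramate and dimethadione arrays, and the difference was -1.53 ± 0.15 (adjusted p = 1.04e-11). Mir302b read 4.80, 4.55 and 4.79 with VPA, 5.92, 6.06 and 5.84 with topiramate, 6.50, 5.93 and 6.30 with dimethadione and 5.83, 5.64 and 5.87 with DMSO, a difference of -1.38 ± 0.13 (adjusted p = 4.15e-12). The dimethadione arrays spread over more than 0.5 units in both genes. Mir302a fell by 1.36, Mir302d fell by 1.21 and Mir367 fell by 0.62.

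Larp7, the gene in whose locus the cluster lies, had 1 probe set called lower (-0.26, adjusted p = 0.00342) and 1 not called (-0.20, adjusted p = 0.106). In the miR-17 cluster 6 of 6 probe sets, host transcript Mir17hg included, were called lower, with a median of -0.89. Mir18 read 8.37, 8.13 and 8.09 with VPA, 9.27, 9.30 and 8.99 with topiramate, 9.65, 9.30 and 9.37 with dimethadione and 9.17, 9.19 and 9.41 with DMSO, a difference of -1.11 ± 0.096 (adjusted p = 1.57e-13). Mir17hg read 7.34, 7.09 and 7.17 with VPA, 8.04, 8.01 and 7.80 with topiramate, 8.24, 8.18 and 8.35 with dimethadione and 7.74, 7.90 and 8.11 with DMSO, a difference of -0.91 ± 0.12 (adjusted p = 9.53e-09). No VPA array reached any other array in either gene. The related miR-106b and miR-106a clusters had 2 of 3 members called lower each: Mir93 (-0.19) and Mir106b (-0.20), and Mir106a (-0.35) and Mir363 (-0.62). The calls of Mir93, Mir106b and Mir106a were lost without VPA replicate 1 (adjusted p = 0.0565, 0.166 and 0.103). The clusters were picked after their values were seen.

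Other small RNA genes bear on this result. Of 288 microRNA genes outside the 4 clusters 33 were lower and 1 higher (11.8% called, against 31.0% of all probe sets). These genes were dim, averaging 6.17 to 6.21 with VPA, 6.27 to 6.34 with topiramate and 6.20 to 6.29 with dimethadione. Dim probe sets were called less often: of the 10894 with a mean below the median, 1150 were higher and 520 lower. The calls of these microRNA genes thus leaned to lower, where those of dim probe sets leaned to higher. Of 56 small nucleolar RNA genes 35 were called lower and none higher, with a median of -0.33. Their mean level was 8.80 to 8.83 on the VPA arrays, 9.03 to 9.18 with topiramate, 9.06 to 9.26 with dimethadione and 9.12 to 9.34 with DMSO, so VPA lay below all others. The part of this shift in the fall of the microRNA clusters was not tested.

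**Figure D3:**
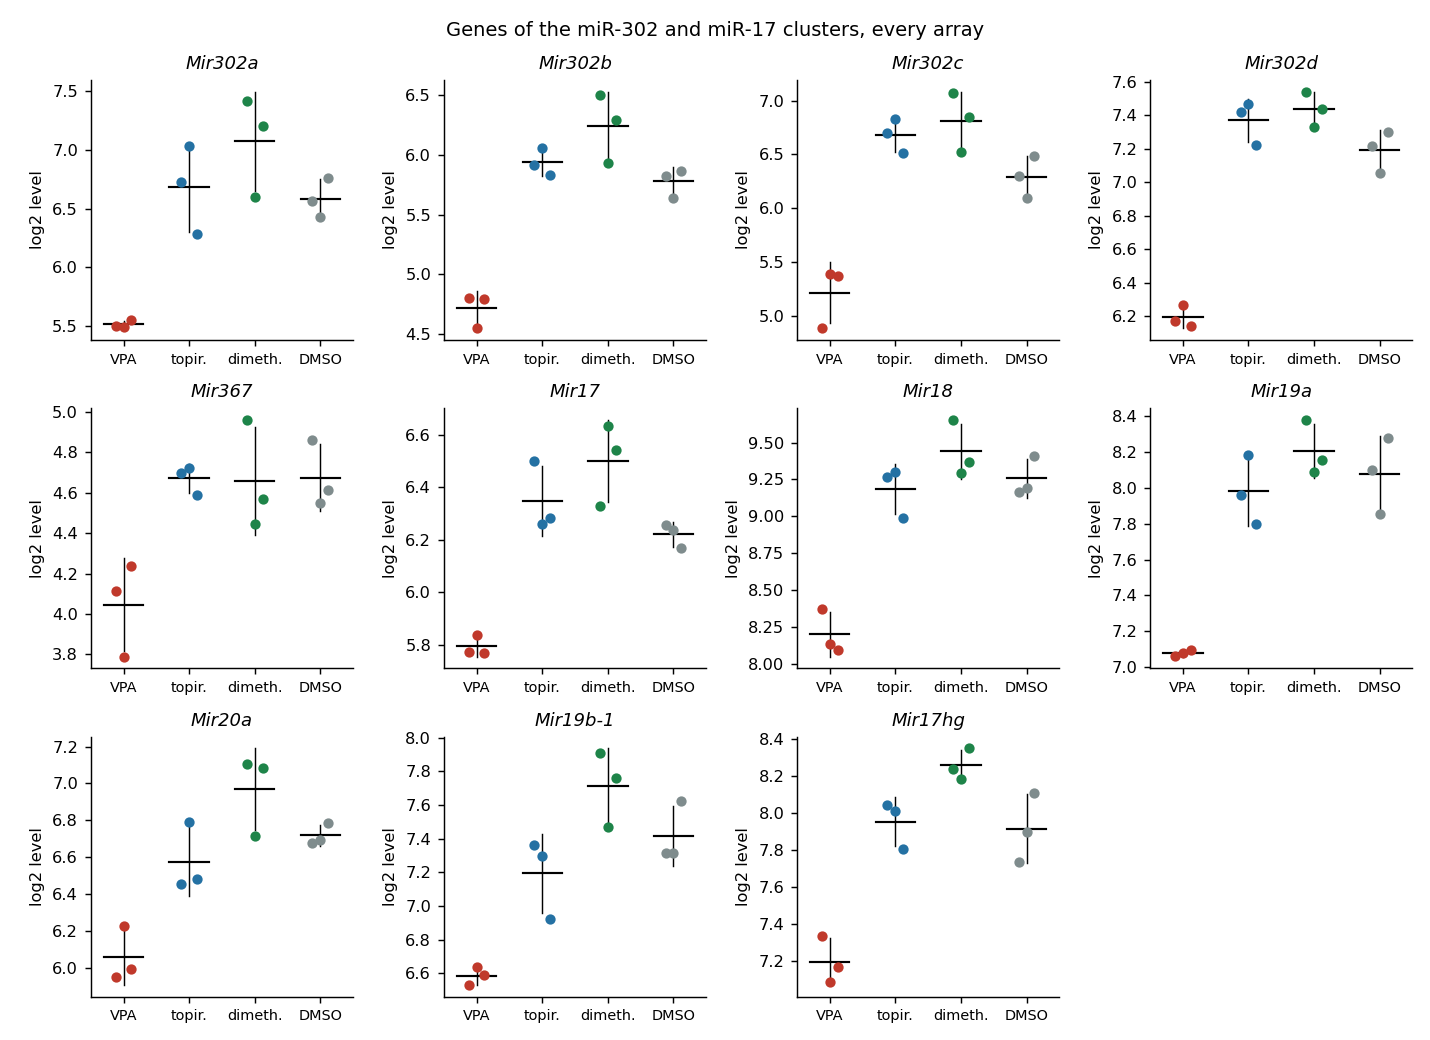
Log2 level on every array for the 5 genes of the miR-302 cluster and the 6 measured genes of the miR-17 cluster; points are arrays, lines the mean ± SD (n = 3), and each panel has its own axis. VPA is below topiramate, dimethadione and DMSO in each of the 11 panels.

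Gene lists were read against the background of 17.6% of probe sets called higher and 13.4% called lower. In each list a gene was represented by its brightest probe set. Calls were more frequent among bright probe sets. Of the 10895 with a mean at or above the median, 2688 were higher and 2397 lower. Of the 10894 dimmer ones, 1150 were higher and 520 lower. For lists of mostly bright genes the shares over all probe sets are therefore a low background. Of the 18 histone deacetylase genes 6 were higher and 2 lower. Among the class I enzymes that VPA inhibits, Hdac3 rose by 0.27 (adjusted p = 4.99e-05) and Hdac1 by 0.11 (adjusted p = 0.0458), while Hdac2, the nearest paralog of Hdac1 (0.13, adjusted p = 0.111) and Hdac8 (0.08, adjusted p = 0.407) were not called. The call of Hdac1 was lost in 9 of its 18 alternatives, among them without any 1 of the VPA arrays (adjusted p = 0.153, 0.0784 and 0.106), and Hdac2 was called after quantile normalisation (0.17, adjusted p = 0.00640). Sirt1, an NAD-dependent deacetylase, read 10.76, 10.82 and 10.80 with VPA, 11.10, 11.16 and 11.04 with topiramate, 11.37, 11.35 and 11.39 with dimethadione and 11.20, 11.10 and 11.18 with DMSO. It was lowest with VPA and also lower with topiramate than with dimethadione (-0.27, adjusted p = 0.0128). Against their mean VPA differed by -0.44 ± 0.050 (adjusted p = 4.26e-10). Of 24 subunits of deacetylase complexes 5 were higher and 10 lower. Rcor2, a CoREST subunit of pluripotent cells, read 10.39, 10.52 and 10.43 with VPA, 11.35, 11.30 and 11.28 with topiramate, 11.39, 11.38 and 11.37 with dimethadione and 11.29, 11.31 and 11.21 with DMSO, a difference of -0.90 ± 0.043 (adjusted p = 4.69e-22). Tbl1xr1 and Tbl1x of the NCoR complex fell by 0.54 and by 0.37, and Mbd3 of the NuRD complex fell by 0.41.

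Of the acetyltransferase and bromodomain genes 12 of 14 were lower and none was higher, with a median of -0.26 against -0.01 over all probe sets. After quantile normalisation, with array weights or without arrays whose title bears a letter b, 1 was higher. Crebbp, the CBP coactivator, read 10.62, 10.54 and 10.48 with VPA, 11.04, 11.07 and 11.13 with topiramate, 11.21, 11.02 and 11.24 with dimethadione and 11.18, 11.09 and 11.21 with DMSO, a difference of -0.57 ± 0.056 (adjusted p = 8.52e-12). Its paralog Ep300 fell by 0.40, Kat6b fell by 0.49, Kat5 fell by 0.45 and Kat7 fell by 0.40. Kat6a and Brd7 were not called (-0.14 and 0.15), and every VPA array of Brd7, singled out after its values were seen, lay above the 6 others. Of 24 histone genes measured 7 were higher and 1 lower. The testis histones H2ac1 (1.13) and H2bc1 (0.73) and the linker histones H1f10 (0.72) and H1f2 (0.30) led the rises. Histone genes of the replication clusters resemble each other, and probe sets may share signal. Of 12 DNA methylation genes 1 was higher and 5 lower. The dioxygenases Tet2 and Tet1 fell by 0.61 and by 0.51, and the imprint-protecting Zfp57 fell by 0.39.

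Pluripotency genes were lower as a group. In the naive pluripotency list 20 of 29 were lower and 1, Stat3, was higher, with a median of -0.31. Nanog averaged 11.95 ± 0.041 with VPA, 12.62 ± 0.019 with topiramate, 12.72 ± 0.044 with dimethadione and 12.63 ± 0.020 with DMSO (SD, n = 3), with no overlap between VPA and the rest and a difference of -0.72 ± 0.046 (adjusted p = 1.38e-17). Tbx3 read 9.35, 9.30 and 9.26 with VPA, 10.11, 9.97 and 9.83 with topiramate, 10.13, 10.13 and 9.91 with dimethadione and 10.00, 9.95 and 9.98 with DMSO, again with VPA lowest throughout. Gbx2 fell by 0.78, Tbx3 fell by 0.71, Prdm14 fell by 0.70 and Zfp42 fell by 0.53. Pou5f1 (-0.07), Dppa5a (0.01) and Klf5 (0.00) were not called, and Sox2 fell by 0.15. The 13 stem cell markers averaged 11.30 to 11.34 on VPA arrays, 11.58 on each topiramate array, 11.57 to 11.62 with dimethadione and 11.56 to 11.60 with DMSO. Genes of the formative and primed epiblast, which normally follow the naive state, were lower too: 15 of 23 were called lower and none higher (1 higher with array weights). Fgf5, a marker of the primed epiblast, read 7.95, 8.24 and 8.37 with VPA, 9.10, 9.20 and 9.05 with topiramate, 9.07, 9.10 and 9.02 with dimethadione and 9.13, 9.17 and 9.18 with DMSO, a difference of -0.90 ± 0.065 (adjusted p = 5.35e-16).

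No lineage list rose as a whole. Of 30 neural transcription factors 8 were lower and none higher. Pax6, an eye and forebrain factor, read 7.31, 7.22 and 7.40 with VPA, 8.20, 8.28 and 8.08 with topiramate, 8.35, 8.23 and 8.25 with dimethadione and 8.18, 8.18 and 8.22 with DMSO, a difference of -0.92 ± 0.067 (adjusted p = 7.33e-16). Mesoderm and endoderm factors had 3 of 29 higher and 3 lower. Eomes fell by 0.36 and Foxc2 rose by 0.23. Hox and retinoid genes had 1 of 27 higher and 4 lower, with the retinoic acid receptors Rarg and Rara lower by -0.64 and -0.37. Primitive endoderm markers had 1 of 14 higher and 2 lower (Dab2 0.29, Lama1 -0.36, Sox7 -0.25), and trophoblast markers 2 higher and 3 lower of 14 (Ascl2 0.43). Signalling genes were mixed. In the Nodal and BMP list 4 of 24 were higher and 9 lower. The BMP target Id1 read 10.91, 10.87 and 10.84 with VPA, 10.00, 10.03 and 10.03 with topiramate, 9.97, 10.04 and 9.89 with dimethadione and 10.01, 10.00 and 10.13 with DMSO, a difference of 0.88 ± 0.057 (adjusted p = 1.39e-17), and Id2 rose by 0.51, while the ligand Bmp4 fell by 0.69. Among Wnt targets 5 of 23 were higher and 9 lower. Notum, a secreted Wnt inhibitor, fell by 0.77, Lef1 fell by 0.51 and the cyclin Ccnd1 fell by 0.49. Among FGF and ERK genes 4 of 24 were higher and 8 lower, with Fgf17 at -0.91, Spry2 at -0.57 and Etv5 at -0.42.

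Neuronal genes reported to respond to deacetylase inhibition were divided. Of 29 measured 11 were higher and 4 lower, with a median of 0.01. Elavl3, a neuronal RNA-binding protein, read 9.77, 9.88 and 9.84 with VPA, 9.02, 8.94 and 8.81 with topiramate, 8.97, 9.03 and 8.98 with dimethadione and 8.93, 8.96 and 8.91 with DMSO, a difference of 0.87 ± 0.072 (adjusted p = 5.46e-14). The synaptic vesicle protein Sv2a rose by 0.68, chromogranin Chga by 0.53 and the microtubule protein Map2 by 0.52. Germline genes had 9 of 23 higher and none lower, led by Meioc, Tex15 (0.55) and Tex11 (0.42). Against dimethadione alone 2 were lower. With the interquartile range as a covariate 1 was lower, and with array weights 2. In this list 5 of 23 members were lower with topiramate than with dimethadione, against 3.54% of all probe sets. None was called in that comparison with the interquartile range as a covariate.

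Lists of genes tied to the drugs' known targets were read against 31.0% of all probe sets called with VPA and 5.53% called between topiramate and dimethadione. Most of the channel, carbonic anhydrase, glutamate and GABA genes were dim. When probe sets with a mean below the median were left out, 3 of 25 sodium and calcium channel genes remained, all 3 higher. Of the potassium channel genes 5 of 19 remained, of the carbonic anhydrases 5 of 15, of the glutamate list 6 of 22 and of the GABA list 2 of 18. Of all 25 sodium and calcium channel genes 11 were higher and none lower (1 lower against topiramate alone), with a median of 0.14. Among them Rem2, Rrad (0.50) and Gem (0.43) are small GTPases that restrain calcium channels. Cacna1b, the N-type channel, read 8.73, 8.65 and 8.71 with VPA, 8.11, 7.98 and 8.06 with topiramate, 8.04, 8.07 and 8.02 with dimethadione and 8.06, 7.98 and 8.10 with DMSO, a difference of 0.65 ± 0.049 (adjusted p = 1.86e-15). Of the T-type channels, which dimethadione blocks, Cacna1h rose by 0.33 and Cacna1g by 0.25 with VPA, and Cacna1i was not called (0.08). Between topiramate and dimethadione the T-type differences were 0.12 for Cacna1g (95% interval -0.04 to 0.27), 0.06 for Cacna1h (-0.09 to 0.20) and 0.14 for Cacna1i (0.01 to 0.27), none called. Potassium channel genes had 5 of 19 higher and 3 lower, among them Kcnj10 at 0.68 and Kcnj3 at -0.36.

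Of 15 carbonic anhydrase genes, the enzymes topiramate inhibits, 6 were higher and 1 lower with VPA. Mitochondrial Car5b read 8.61, 8.25 and 8.40 with VPA, 7.74, 7.56 and 7.44 with topiramate, 7.96, 7.56 and 7.79 with dimethadione and 7.45, 7.62 and 7.52 with DMSO, a difference of 0.75 ± 0.085 (adjusted p = 5.50e-10), and cytosolic Car13 rose by 0.59. Car2 read 11.63, 11.65 and 11.69 with VPA, 11.81, 11.90 and 11.82 with topiramate, 11.91, 11.86 and 11.85 with dimethadione and 11.98, 11.89 and 11.93 with DMSO, a difference of -0.21 ± 0.053 (adjusted p = 0.00145). Between topiramate and dimethadione none of the 15 was called, and Car2 differed by -0.03 (95% interval -0.15 to 0.09) and Car4 by -0.05 (-0.18 to 0.08). With VPA Car4 was not called (-0.12), but it was with the interquartile range as a covariate (-0.17). The glutamate list had 5 of 22 higher and 4 lower. Slc17a7, the vesicular glutamate transporter 1, read 8.82, 8.81 and 8.87 with VPA, 7.90, 7.80 and 7.94 with topiramate, 7.94, 7.83 and 7.88 with dimethadione and 7.91, 7.92 and 7.93 with DMSO, a difference of 0.95 ± 0.057 (adjusted p = 1.56e-18), the glutamine transporter Slc1a5 rose by 0.46 and the kainate receptor Grik3 fell by 0.33. The topiramate-related receptor genes Gria1, Grik5 and Gabra5 were not called with VPA or between the other compounds, except Gabra5 with VPA under that covariate (-0.16). The GABA list had 4 of 18 higher and 2 lower. Abat and Aldh5a1, which break GABA down, rose by 0.27 and 0.17 (that of Aldh5a1 lost without VPA replicate 1, adjusted p = 0.136), the receptor subunits Gabrg1 and Gabra4 rose by 0.56 and 0.55 from low levels, and Gabbr1 fell by 0.40. Between topiramate and dimethadione 2 of the 18 were called, the GABA-B receptor subunit Gabbr2 (0.30, adjusted p = 0.0369) and the GABA transporter Slc6a11 (0.21, adjusted p = 0.0414), both higher with topiramate and neither called with the covariate.

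Of 29 fatty acid oxidation and carnitine genes 17 were higher and 2 lower, with a median of 0.23. Cpt1a, the rate-limiting carnitine palmitoyltransferase of mitochondrial import, read 10.35, 10.35 and 10.38 with VPA, 9.37, 9.51 and 9.31 with topiramate, 9.70, 9.52 and 9.64 with dimethadione and 9.43, 9.38 and 9.56 with DMSO. VPA lay at least 0.6 units above every other array, a difference of 0.85 ± 0.063 (adjusted p = 1.13e-15). The carnitine transporter Slc22a5 rose by 0.36, and Ehhadh and Acaa2 of the beta-oxidation spiral by 0.55 and 0.52, while the neuronal isoform Cpt1c fell by 0.52. Cholesterol synthesis genes had 11 of 20 higher and 1, Insig1, lower. The rises were modest: Pmvk 0.40, Tm7sf2 0.39, Sc5d 0.35 and Msmo1 0.31.

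Folate and methionine genes had 6 of 22 higher and 7 lower. Folr1, the folate receptor alpha, read 9.48, 9.48 and 9.34 with VPA, 10.23, 10.10 and 10.16 with topiramate, 10.19, 10.14 and 10.04 with dimethadione and 10.05, 10.16 and 10.04 with DMSO, a difference of -0.71 ± 0.061 (adjusted p = 1.84e-13). The methionine synthase reductase Mtrr fell by 0.46, and Cbs and Ggh rose by 0.40 and 0.38. Inositol and GSK3 genes, another set of proposed VPA targets, had 2 of 13 higher and 3 lower. Gsk3a fell by 0.16 (adjusted p = 0.00809). Its paralog Gsk3b (0.04), Impa1 (0.09) and Slc5a3 (0.19) were not called, though Slc5a3 was without topiramate replicate 2 (0.23). Slc5a11, an inositol cotransporter, fell by 0.65. Gsk3b was lower with topiramate than with dimethadione (-0.18, adjusted p = 0.0444).

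Stress lists differed by pathway. Of 20 endoplasmic reticulum chaperone genes 13 were higher and none lower, with a median of 0.20. Derl3, of the degradation machinery, read 9.79, 9.78 and 9.78 with VPA, 9.16, 9.09 and 9.06 with topiramate, 9.21, 9.17 and 9.07 with dimethadione and 9.00, 8.95 and 9.08 with DMSO, a difference of 0.66 ± 0.078 (adjusted p = 1.90e-09). Sdf2l1, Herpud1 and Creld2 rose by 0.47, 0.45 and 0.44, and the master chaperone Hspa5 by 0.21. The ATF4 list was divided, with 6 of 27 higher and 8 lower, and the arginine transporter Slc7a3 fell by 0.63. Nrf2 targets had 7 of 22 higher and 2 lower. Srxn1, which repairs peroxiredoxins, read 10.21, 10.25 and 10.32 with VPA, 9.50, 9.51 and 9.37 with topiramate, 9.51, 9.40 and 9.50 with dimethadione and 9.38, 9.34 and 9.47 with DMSO, a difference of 0.80 ± 0.050 (adjusted p = 7.20e-18), and Gclc of glutathione synthesis rose by 0.43. In the p53 list 4 of 21 were higher and 9 lower, with Eda2r at -0.77 and Phlda3 at -0.55. The cold-inducible list had 2 of 9 higher and 1 lower, and the heat shock gene Hspa1a rose by 0.89.

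Immediate early genes had 13 of 28 higher and none lower. After quantile normalisation, with the interquartile range as a covariate, with array weights and against dimethadione alone 1 was lower. The largest rises after Egr1 were Ier3 (0.56), Zfp36 (0.39) and Jun (0.37), and Fos rose by 0.35. Of 18 genes of calcium and small GTPase signalling 11 were higher and none lower. Here too 1 was lower after quantile normalisation, with that covariate, with array weights and against dimethadione alone. Rhob, a stress-inducible GTPase, read 8.70, 8.77 and 8.70 with VPA, 7.97, 8.11 and 7.97 with topiramate, 8.44, 8.24 and 8.30 with dimethadione and 8.19, 8.13 and 8.36 with DMSO, a difference of 0.55 ± 0.078 (adjusted p = 1.34e-07), and it was lower with topiramate than with dimethadione (-0.31). Lysosome and autophagy genes had 16 of 36 higher and 5 lower, among them Wipi1 at 0.65, Uvrag at 0.60, Gabarapl1 at 0.55 and cathepsin Ctsl at 0.50. Cell cycle regulators had 9 of 32 higher and 8 lower. The inhibitor Cdkn2c, p18, read 7.64, 7.10 and 7.21 with VPA, 6.20, 6.40 and 6.67 with topiramate, 6.61, 6.48 and 6.59 with dimethadione and 6.73, 6.65 and 6.68 with DMSO, a difference of 0.83 ± 0.086 (adjusted p = 4.83e-11). Its target kinase Cdk6 fell by 0.76, and the retinoblastoma gene Rb1 rose by 0.56.

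**Figure D4:**
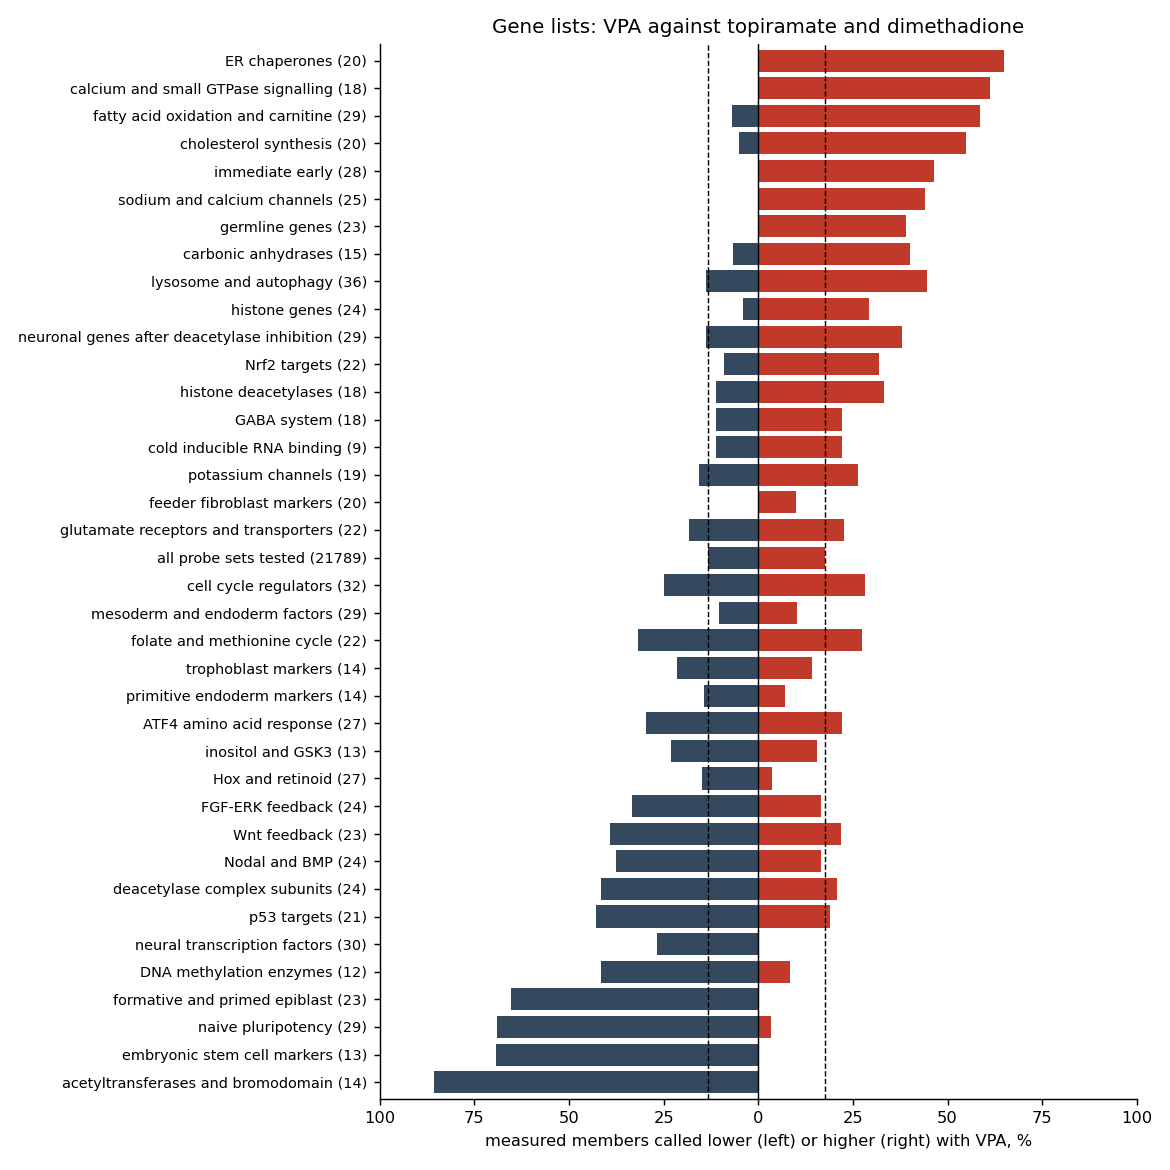
Share of the measured members of each gene list (number in parentheses) called lower (left, dark) or higher (right, red) with VPA against topiramate and dimethadione; dashed lines mark the shares over all probe sets, 13.4% lower and 17.6% higher. Endoplasmic reticulum chaperones and calcium and small GTPase signalling lie at the top, with 13 of 20 and 11 of 18 higher, and acetyltransferases and bromodomain genes at the bottom, with 12 of 14 lower. The lists were chosen with earlier results of these data known, and the GTPase list holds Dennd4a, already given among the largest rises.

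Topiramate and dimethadione differed in 1204 probe sets (5.53%), 433 higher (1.99%) and 771 lower (3.54%) with topiramate, but this count was not stable. With each array's interquartile range as a covariate it was 0 (1924 at an unadjusted p under 0.05) and in a fit restricted to the 9 arrays it was 2 (Try10 and Trdn). Without topiramate replicate 1, 2 or 3 it was 42, 2964 or 3, and without dimethadione replicate 1, 2 or 3 it was 0 (3244 at an unadjusted p under 0.05), 2944 or 167. The differences also followed brightness. Among the 10895 brighter probe sets 67 were higher and 673 lower with topiramate (median difference -0.06), and among the 10894 dimmer ones 366 were higher and 98 lower (median 0.10). The interquartile ranges were 3.11, 3.18 and 3.05 for the topiramate arrays and 3.31, 3.15 and 3.23 for those of dimethadione. Beyond the covariate, the part of this spread in the calls was not tested. After quantile normalisation 583 were called, 291 higher and 292 lower, so the surplus of lower calls (36.0% higher as deposited) was gone. The VPA count, by contrast, lay between 5664 and 6665 when any 1 array was left out and was 7312 with the covariate.

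**Figure D5:**
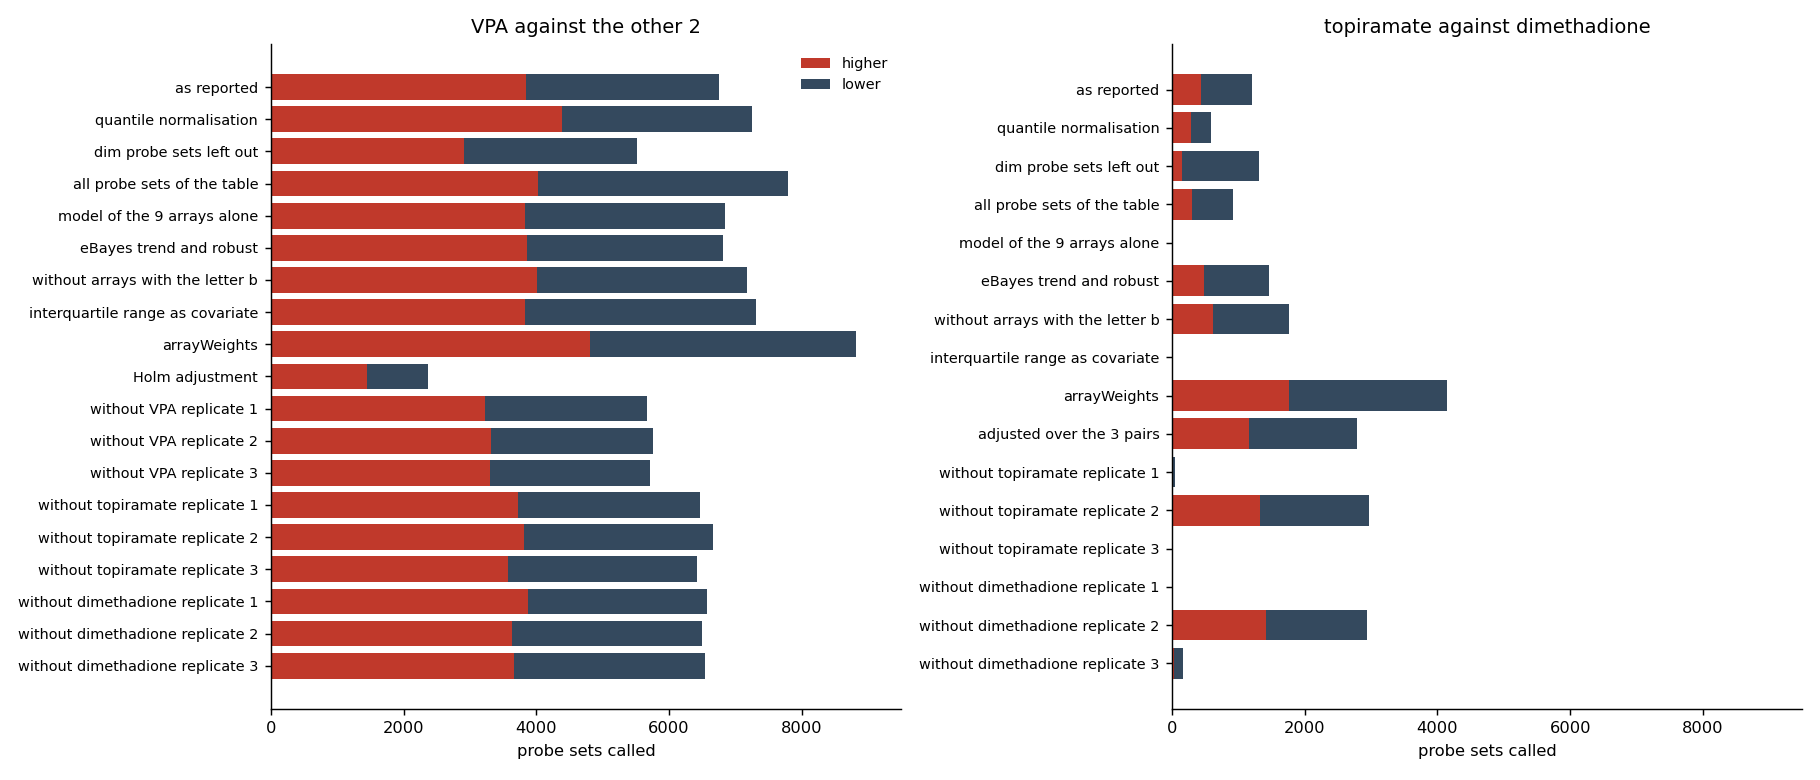
Probe sets called (horizontal axis) higher (red) and lower (dark) in VPA against the other 2 compounds (left) and in topiramate against dimethadione (right), as reported and under each alternative other than the 1.5-fold threshold. The left bars run from 2370 under the Holm adjustment to 8818 with array weights, and the right bars from 0 to 4140.

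The 5 largest called differences in each direction between topiramate and dimethadione included none of the 30 genes named above for VPA. Zfp931, a zinc finger gene, read 8.21, 7.92 and 7.90 with VPA, 6.62, 7.21 and 6.51 with topiramate, 8.17, 7.42 and 7.98 with dimethadione and 7.42, 6.76 and 7.93 with DMSO. Topiramate was below dimethadione on every array, by -1.08 ± 0.23 (adjusted p = 0.0131), but the DMSO arrays spanned most of that range. Myo9a, an unconventional myosin, had 13 probe sets, of which 2 were called here, with differences from -0.78 to -0.10. Ltn1, a ribosome quality control ligase, had 16 with 5 called (-0.69 to -0.06), and Cspp1, a spindle pole gene, 14 with 6 called (-0.68 to 0.38). Nudt10, a nudix hydrolase, differed by -0.70, and its arrays overlapped at dimethadione replicate 2. In the other direction Drc1, of the axonemal dynein regulatory complex, read 7.61, 7.74 and 7.64 with VPA, 7.93, 7.76 and 7.93 with topiramate, 7.16, 7.51 and 7.47 with dimethadione and 7.74, 7.83 and 7.58 with DMSO, a difference of 0.49 ± 0.087 (adjusted p = 0.00588). Try10 (0.61), Crygb (0.56), H2-M10.5 (0.51) and Gsdmc2 (0.49) were also higher with topiramate. They encode a trypsinogen, a lens crystallin, an MHC protein and a gasdermin. Of these 10 genes none was called with the covariate (nor were Sirt1, Gsk3b, Rhob or the germline genes), and of the 10 probe sets behind these differences that of Zfp931 alone was also called in VPA against the mean of both. Over all their probe sets Cspp1, Ltn1 and Myo9a had 6, 4 and 2 called in that comparison.

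For most genes tied to the drugs the data bound the difference between topiramate and dimethadione rather than show one. The interval was -0.14 to 0.05 for Hdac1, -0.10 to 0.15 for Hdac3, 0.03 to 0.43 for Gria1, -0.13 to 0.17 for Grik5, -0.14 to 0.15 for Gabra5, 0.02 to 0.25 for Abat and -0.28 to 0.10 for Slc22a5. Those of Gria1 and Abat lay wholly on the side of higher with topiramate, though neither gene was called. Cpt1a differed by -0.23 (-0.37 to -0.08, adjusted p = 0.0514), lower with topiramate. For the 15 largest VPA rises and the 15 largest falls the intervals of topiramate minus dimethadione lay within -0.79 to 0.22. Several lay wholly on the side of lower with topiramate, among them those of Meioc (-0.50 to -0.10) and Mak (-0.39 to -0.07). None lay wholly on the other side. A p that misses the threshold does not show that the compounds act alike.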

How the data were processed

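Total RNA of R1 cells was hybridised as biotin-labelled single-stranded cDNA to Affymetrix mouse gene arrays. The values used are log2 levels per probe set as deposited by the authors, summarised with RMA per the submitters' processing notes. RMA normalises arrays towards a common distribution, so a shift shared by most genes may not be seen. The deposited levels still differed in interquartile range between arrays, from 2.97 to 3.31 over the series. The genome build is not given in the sources used here. Of 35556 probe sets 21789 have 1 gene symbol in the platform annotation (19938 symbols); 1621 with several symbols and 12146 not listed entered only an alternative. There are no missing values, and the number of arrays limits the precision.

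A single limma model (limma 3.58.1, R 4.3.3) of the 60 arrays with 20 group means gave VPA minus the mean of topiramate and dimethadione, VPA minus each, and topiramate minus dimethadione. All 60 arrays share 1 estimate of spread (40 residual and 7.31 prior degrees of freedom), and p-values were adjusted by Benjamini-Hochberg within each comparison.

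Named genes are the 15 largest called differences in each direction whose VPA arrays lie beyond all 6 others, the 5 largest in each direction between topiramate and dimethadione, up to 4 leading members of each list, and 19 drug-related genes. Genes given beyond these were chosen after their values were seen. The groups compared, the members and the gene lists were chosen with earlier results of these data known. Alternatives were quantile normalisation, a filter on dim probe sets, all probe sets, a model of the 9 arrays, robust moderation, leaving out arrays whose title bears a letter b, the interquartile range as a covariate, array weights, other adjustments, a fold threshold and leaving out each array. Promoter and microRNA sequences come from RefSeq (GRCm38.p6).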

Additional observations from a re-analysis of the deposited data

Results flagged for a closer look

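The 13767 probe sets with no or several gene symbols lie outside the comparisons above. In a fit of all 35556 probe sets, 1391 of them (10.1%) were called in VPA against topiramate and dimethadione, 353 higher and 1038 lower. In the same fit 29.4% of the probe sets with 1 symbol were called. What these probe sets measure is not named here.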

How the results depend on the processing

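No paired analysis was possible because the labels give the arrays no replicate numbers that treatments share. VPA against the mean of the other compounds kept its count within 1.5 times of 6755 except under the Holm adjustment, which is stricter by construction (2370), and with a 1.5-fold threshold (534); without 1 array it was 5664 to 6665. That threshold gave 594 against topiramate and 552 against dimethadione, where leaving out 1 array gave 5247 to 6755 and 5064 to 5751. The split against dimethadione (3088 higher, 2930 lower) was 3954 and 2662 after quantile normalisation, 2158 and 2816 without dim probe sets and 3188 and 3943 over all probe sets of the table. All 30 leading genes stayed called wherever they were tested, with absolute differences of at least 0.99; the filter on dim probe sets kept 18 of them. The median position of DMSO was 0.03 to 0.04 without 1 DMSO array, and arrays did not overlap in 4994 to 8076 probe sets under 3 alternatives chosen after seeing the data.

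Topiramate against dimethadione (1204) gave 583 after quantile normalisation, 2 in the model of the 9 arrays, 0 with the interquartile range as a covariate, 4140 with array weights, 2781 adjusted over the 3 pairs, where the many VPA calls loosen the threshold by construction, and 11 at 1.5-fold; without 1 array it was 0 to 2964. The filter on dim probe sets gave 152 higher and 1165 lower. The cause was not tested. None of the probe sets given for named genes and microRNA clusters changed sign as a call under the alternatives. The signs of the other called probe sets were not compared. The 3 arrays per treatment limit what small differences can be seen.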
